A study of Mus musculus with 3 samples.

Results

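Goblet cells of the duodenum were compared with goblet cells of the ileum, the first and the last segment of the mouse small intestine. A barcode (the tag of 1 droplet, taken as 1 cell) was counted as a goblet cell when it held 800 to 50000 UMIs (unique molecular identifiers, each counting 1 captured transcript), at most 40% of them from the mitochondrial genome, no UMI of the leukocyte gene Ptprc, at least 2 of the 3 goblet genes Muc2, Fcgbp and Clca1, and a sum of at least 10 UMIs of these genes per 10000 UMIs of the barcode. This rule found 198 cells in the duodenum and 675 in the ileum, 873 of 19096 barcodes of both libraries and of 27235 barcodes of the series. It also found 176 cells in the jejunum, the segment between them, which was used only for comparison.

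Each segment was 1 library, made from epithelial cells and intraepithelial immune cells of 3 pooled male wildtype (WT) C57BL/6N mice that were 12 weeks old. The cells had been shaken off the washed tissue in a buffer with EDTA and DTT, sorted as live cells that excluded propidium iodide, and captured with a droplet kit that reads the 3′ end of transcripts. The labels name no treatment, and the segments were cut by position along the gut. With 1 library of pooled mice per segment, there were no replicates and differences between segments carry no test. All intervals in parentheses are exact 95% intervals (Poisson for levels, Clopper-Pearson for shares and ratios) and cover counting error only, not the spread between mice or between preparations. Those of levels and ratios also leave out the spread between cells, so they are too narrow for genes held by few cells.

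Goblet cells are secretory cells of the gut epithelium. They fill apical granules with the gel-forming mucin Muc2 and release it with partner proteins such as Fcgbp, Clca1, Zg16 and Tff3, which together form the mucus that keeps bacteria and food particles away from the epithelium. In the small intestine this mucus is loose, and it is washed off the surface with bicarbonate-rich fluid. Muc2 is folded and joined by disulfide bonds in the endoplasmic reticulum, heavily decorated with O-linked sugars and sulfate in the Golgi, and stored with calcium until secretion. The duodenum receives acid, pancreatic juice and bile, whereas the ileum takes bile acids back and meets many more bacteria.

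The libraries held between 78074516 and 98518847 UMIs. They differed in the share of cells that passed the mitochondrial limit: 4281 of 9405 cells with 800 to 50000 UMIs passed in the duodenum and 8113 of 9381 in the ileum. Without the cells that held a Ptprc UMI, 4120 were left in the duodenum and 5773 in the ileum. The duodenum and the ileum shared 20 barcode sequences, and no goblet barcode of one was a goblet barcode of the other.

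The sum of the 3 gate genes fell into separate ranges. In the duodenum, 186 of the 198 cells had at least 50 UMIs of Muc2, Fcgbp and Clca1 per 10000, with a median of 1036, and 12 cells (6.06%) lay between 10 and 50. In the ileum 406 of the 675 cells had at least 50, with a median of 1214, and 269 cells (39.9%) lay between 10 and 50, with a median of 14.4. Just inside the limit of 10 the lowest values were 10.5 in the duodenum and 10.03 in the ileum, and just outside it the highest were 9.80 and 9.99. Between 5 and 10 there were 23 duodenal and 586 ileal cells, so that in the ileum the limit cut through a dense range. The limit of 50 fell in a thin one: the nearest cells were at 32.5 and 59.1 in the duodenum and at 47.1 and 50.1 in the ileum, and 7 duodenal and 21 ileal cells lay between 50 and 200.

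**Figure D1:**
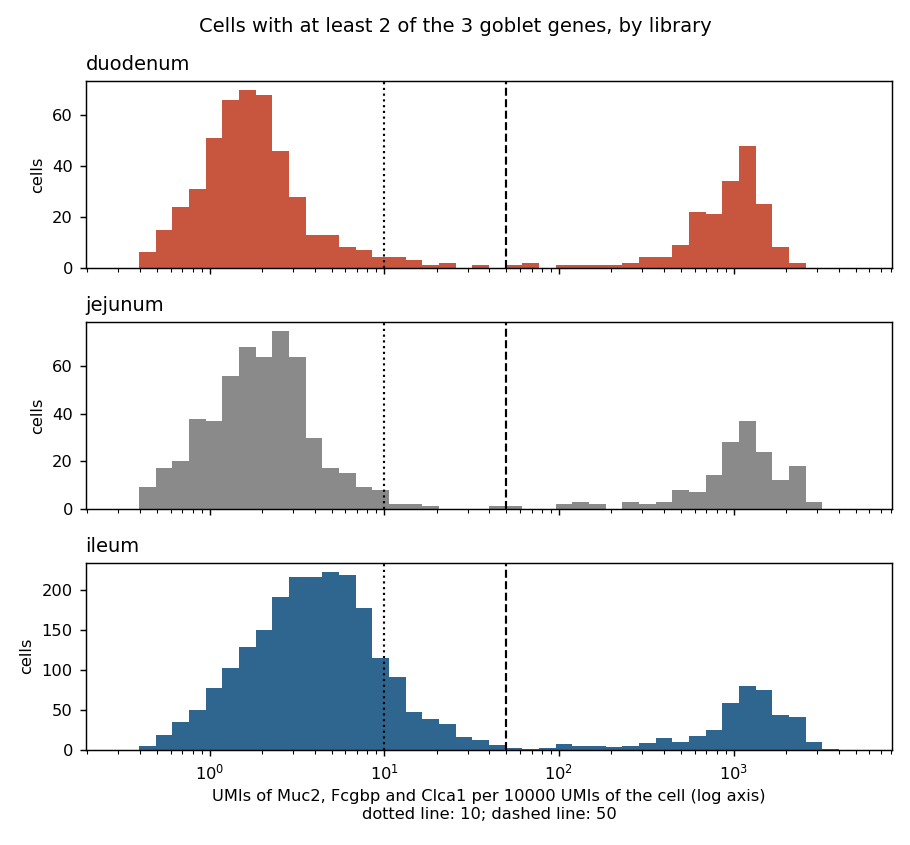
Number of cells (vertical axis, 1 panel per library) by the summed UMIs of Muc2, Fcgbp and Clca1 per 10000 UMIs of the cell (horizontal log axis), among cells within the UMI, mitochondrial and Ptprc limits that held at least 2 of the 3 genes. The dotted line marks 10 and the dashed line 50, and 269 ileal, 9 jejunal and 12 duodenal cells lie between them.

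The ileal cells between 10 and 50 went against the goblet label. The goblet markers outside the gate, 19 genes with enough UMIs in both segments, summed to 122 UMIs per 10000 non-mitochondrial UMIs in them, against 2705 in ileal cells at 50 or more and 94.8 in ileal T cells, a cell type that should lack these genes. Zg16, a lectin of mucus granules, was at 26.9 in the range of 10 to 50, at 1828 in cells at 50 or more and at 64.8 in T cells. Tff3, a trefoil peptide, was at 22.8, 686 and 20.6. The T cells were gated without a limit on goblet genes. In ileal T cells the sum of the gate genes had a median of 2.74 and a maximum of 1167 per 10000. Their summed levels therefore include cells rich in goblet genes. Enterocyte genes were high instead: a panel of 13 enterocyte genes summed to 820 UMIs per 10000, which was 65.0% of its level in ileal enterocytes, against 137 (10.9%) in ileal cells at 50 or more. In duodenal cells at 50 or more the panel summed to 85.5, or 11.3% of the level in duodenal enterocytes. In the 12 duodenal cells between 10 and 50 it summed to 261, or 34.6%. Their goblet markers outside the gate summed to 670, against 3420 at 50 or more and 13.7 in duodenal T cells. Zg16 made up 0.116% of their non-mitochondrial UMIs, against 24.5% at 50 or more. These 12 cells held only 60561 non-mitochondrial UMIs, and 1 of them had over 20000 UMIs. For the markers of Paneth cells, 1 cell held 8249 of their 8258 UMIs, so sums over the 12 can rest on 1 cell. In the low ileal cells 1 cell held 10960 of 18608 UMIs of these markers, which summed to 227 per 10000 against 25.1 at 50 or more. The low ileal cells also had fewer UMIs, with a median of 2721 against 9033, and a larger mitochondrial share, with a median of 16.3% against 4.75%.

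For this reason the gene counts are given for all 873 cells of the rule and, beside them, for the 592 cells at 50 or more, and the genes are described in the latter, which are called goblet cells from here on. A duodenal goblet cell held 13053.5 UMIs of 2777.5 genes at the median, and an ileal one 9033 UMIs of 2148 genes. The goblet markers outside the gate summed to 3420 UMIs per 10000 in duodenal, 2989 in jejunal and 2705 in ileal goblet cells, and to 7.25 and 24.9 in duodenal and ileal enterocytes.

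By the rule, goblet cells were 4.81% (4.17 to 5.50) of the cells without Ptprc in the duodenum and 11.7% (10.9 to 12.5) in the ileum. At 50 or more the shares were 4.51% (3.90 to 5.19) and 7.03% (6.39 to 7.72). The order depended on the mitochondrial limit, because 2480 of the 3068 duodenal enterocytes but 364 of the 1906 ileal enterocytes held over 20% mitochondrial UMIs. With a limit of 20%, goblet cells at 50 or more were 14.0% (12.0 to 16.3) in the duodenum and 8.27% (7.49 to 9.11) in the ileum, and by the rule 14.6% (12.5 to 16.9) and 11.9% (11.0 to 12.9). The sort, the barcode calling and the mitochondrial limit can each set these shares, so no order of goblet cell abundance along the gut was read from them.

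For each gene, the UMIs of all cells of a segment were summed and divided by the summed non-mitochondrial UMIs, in units of UMIs per 10000. A gene was measured when it had at least 50 UMIs over both segments, and called when the ratio was at least 2. The pools were unequal: cells at 50 or more held 2525611 non-mitochondrial UMIs in the duodenum and 4798518 in the ileum. By the rule the sums were 2586172 and 5616800. A gene found mainly in the ileum therefore reached 50 UMIs at a lower level than one found mainly in the duodenum, which can favour ileal calls. Its part in the counts was not tested. By the rule, 8163 genes were measured, of which 260 (3.19%) were at least 2-fold higher in the duodenum and 827 (10.1%) in the ileum. In goblet cells at 50 or more, 7611 genes were measured, of which 329 (4.32%) were higher in the duodenum and 543 (7.13%) in the ileum, and the median log2 ratio of duodenum over ileum was -0.05. The genes higher in the duodenum shared 231 between both sets, 88.8% of those by the rule and 70.2% of those at 50 or more. Those higher in the ileum shared 499, 60.3% and 91.9%, and 328 ileal genes of the rule were not called at 50 or more, 186 of them because they no longer had 50 UMIs.

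The balance between the directions also depended on what the levels were divided by. Muc2, Fcgbp, Clca1, Zg16 and Tff3 alone made up 42.3% of the non-mitochondrial UMIs of duodenal goblet cells, 39.0% of jejunal ones and 36.2% of ileal ones. Divided by the UMIs outside these 5 genes, 423 genes were higher in the duodenum and 418 in the ileum, so that the duodenal share of the calls was 50.3% in place of 37.7%, and the median log2 ratio was 0.10. By the rule this share was 41.0% in place of 23.9%, and the median log2 ratio was 0.09 in place of -0.14. With each cell weighing the same, 578 genes were higher in the duodenum and 585 in the ileum.

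**Figure D2:**
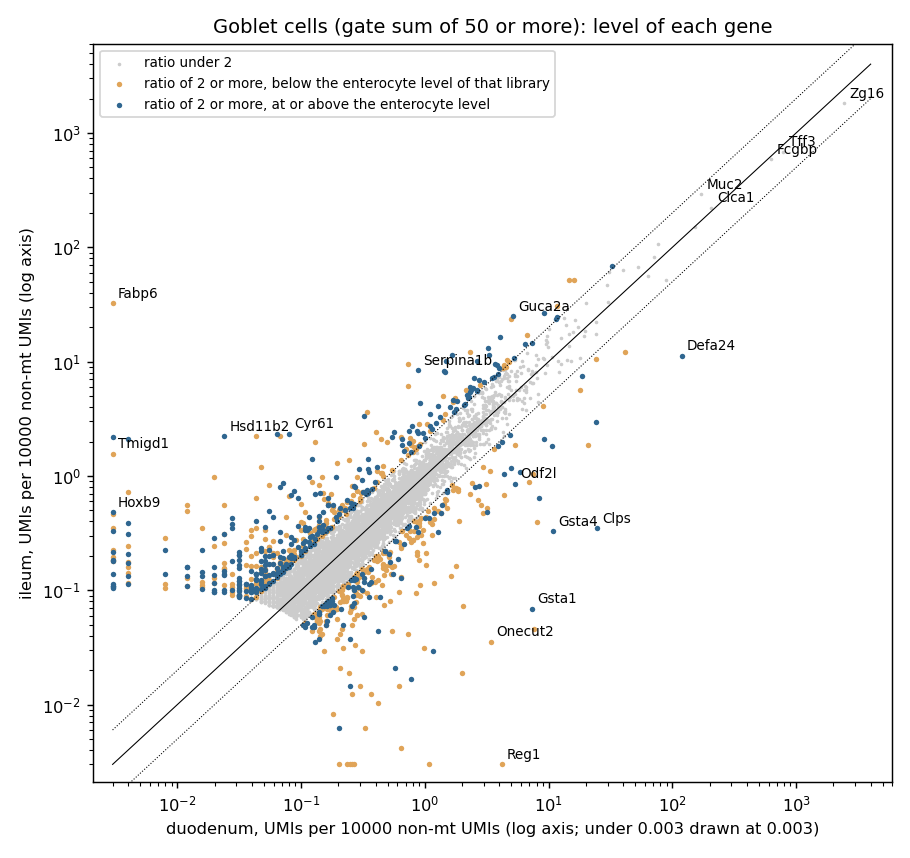
Level of each of 7611 genes in goblet cells at 50 or more gate UMIs per 10000, with the duodenum on the horizontal and the ileum on the vertical log axis, both in UMIs per 10000 non-mitochondrial UMIs. The dotted lines mark a ratio of 2, blue points lie beyond it at or above the level in enterocytes of the higher library, orange points lie beyond it but below that level, and the mucus genes Muc2, Fcgbp, Clca1, Zg16 and Tff3 lie within the lines.

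Since goblet barcodes also held UMIs of enterocyte genes, each called gene was set against the enterocytes and the T cells of its own library. Of the 329 genes higher in duodenal goblet cells, 99 were at or above the level of duodenal enterocytes, and 61 of these were also at least 2-fold above duodenal T cells. Of the 543 genes higher in the ileum, 292 were at or above the level of ileal enterocytes and 147 of these at least 2-fold above ileal T cells. The remaining 230 and 251 genes were below the enterocyte level. In enterocytes, 214 of the 329 duodenal and 252 of the 543 ileal genes differed at least 2-fold in the same direction, and 9 and 14 in the opposite one. Among genes at or above the enterocyte level the number in the same direction was 32 of 99 and 82 of 292. The share of all 7611 genes that differed this way in enterocytes was not computed, so no excess was read from these counts. In a sum over cells, fewer expressing cells and less RNA per cell cannot be told apart, so shares of cells with a UMI are given for the leading genes, after each cell was thinned to 1000 non-mitochondrial UMIs (181 duodenal, 165 jejunal and 397 ileal cells, leaving out 5, 2 and 9 shallower ones).

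The main mucus genes differed less than 2-fold between the segments. The cells were selected on the sum of the gate genes, so these are given as a description. Muc2, the gel-forming mucin, was at 170.5 (169 to 172) in duodenal, 250.1 (248 to 252) in jejunal and 289.9 (288 to 291) in ileal goblet cells. Fcgbp, which is bound to Muc2 in mucus, was at 626 in the duodenum and 592 in the ileum, and Clca1, a protease of the mucus gel, at 206 in the duodenum and 221 in the ileum. Per cell, the interquartile range of Muc2 was 119 to 220.4 UMIs per 10000 in the duodenum and 197 to 411 in the ileum, so the ranges overlapped. None of the 3 reached a ratio of 2.

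Of 19 goblet markers outside the gate, 1 was higher in the duodenum, 1 in the ileum and 17 were within 2-fold. Each direction held 5.26% of them, against 4.32% and 7.13% of all genes. The median log2 ratio was -0.19, against -0.05 over all genes. Zg16 was at 2448 (2441 to 2454) in the duodenum and 1828 (1825 to 1832) in the ileum, and its interquartile ranges per cell were 959 to 2884 and 583 to 2188. Tff3 was at 785 in the duodenum and 686 in the ileum. Spink4, a secreted protease inhibitor of goblet granules, was at 88.4 in the duodenum and 52.1 in the ileum, and Agr2, a disulfide isomerase needed for Muc2 assembly, at 53.2 in the duodenum and 67.4 in the ileum. The transcription factors that make secretory cells were also close: Atoh1 was at 2.71 in the duodenum and 2.97 in the ileum and Spdef, which drives goblet maturation, at 1.18 in the duodenum and 1.76 in the ileum.

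The marker that was higher in the ileum was Guca2a, which encodes guanylin, a secreted peptide that triggers chloride and fluid secretion through guanylate cyclase C. It was at 5.19 (4.91 to 5.48) in duodenal, 17.0 (16.4 to 17.6) in jejunal and 24.9 (24.5 to 25.4) in ileal goblet cells, 4.81-fold (4.54 to 5.10) higher in the ileum than in the duodenum. After thinning, 27.6% (21.3% to 34.7%) of duodenal and 63.2% (58.3% to 68.0%) of ileal goblet cells held a UMI of it. Enterocytes moved the same way, at 1.25 and 13.6. The marker higher in the duodenum was Rep15, which binds the recycling GTPase Rab15, at 3.90 (3.66 to 4.15) and 1.83 (1.71 to 1.95), 2.13-fold (1.95 to 2.34) higher in the duodenum, with enterocytes at 0.00931 and 0.00878.

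Among 11 measured mucins and mucus proteins, Itln1 was higher in the duodenum and Muc4 in the ileum, with a median log2 ratio of -0.22. Each is 9.09% of the list, against 4.32% and 7.13% of all genes. The transmembrane mucin Muc13 was at 24.3 in the duodenum and 22 in the ileum, below its level of 37.7 and 33.2 in enterocytes. Muc4, another membrane mucin, was rare, with 11 UMIs in all duodenal and 59 in all ileal goblet cells, 2.82-fold (1.47 to 5.96) higher in the ileum. Itln1, an intelectin also made by Paneth cells, was at 9.24 in the duodenum and 2.11 in the ileum, but 1 cell held 63.3% of its duodenal UMIs and 1 cell 60.8% of its ileal UMIs. Without cells over 20000 UMIs its log2 ratio turned from 2.13 to -1.62.

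Of 36 genes of mucin-type O-glycosylation, 3 were higher in the duodenum, 1 in the ileum and 32 within 2-fold, which is 8.33% and 2.78% of them against 4.32% and 7.13% of all genes, with a median log2 ratio of 0.19. Chain-starting and chain-building enzymes were close: Galnt7, which adds to a growing sugar chain, was at 3.68 in the duodenum and 3.67 in the ileum, Galnt12 at 2.65 in the duodenum and 2.50 in the ileum, and Gcnt3, which makes branched core structures, at 5.82 in the duodenum and 4.76 in the ileum. The genes higher in the duodenum were Slc26a2, Papss2 and Fut4. Slc26a2, a sulfate transporter, was at 4.97 (4.69 to 5.25) in duodenal, 2.63 (2.40 to 2.88) in jejunal and 1.17 (1.08 to 1.27) in ileal goblet cells, 4.23-fold (3.83 to 4.68) higher in the duodenum. It was detected after thinning in 43.1% (35.8% to 50.6%) of duodenal and 11.8% (8.83% to 15.4%) of ileal goblet cells, whereas enterocytes went the other way, at 1.81 in the duodenum and 3.44 in the ileum. Papss2, which makes the activated sulfate donor, was at 2.97 in the duodenum and 0.473 in the ileum, 6.28-fold (5.40 to 7.31) higher, but stood at 23.7 in duodenal enterocytes and 7.67 in duodenal T cells, above its goblet level. With the level of T cells subtracted its duodenal level fell below 0 and was set to a floor of 3 UMIs. The resulting log2 ratio of -4.71 is set by that floor. The sulfotransferase Chst4 was at 1.45 in the duodenum and 1.25 in the ileum. Fut4, a fucosyltransferase, was at 0.677 in the duodenum and 0.256 in the ileum, 2.64-fold (2.08 to 3.36) higher in the duodenum, and St3gal1, a sialyltransferase, was at 0.0158 in the duodenum and 0.110 in the ileum with only 4 duodenal UMIs.

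Of 43 genes of protein folding and endoplasmic reticulum (ER) stress, 1 was higher in the duodenum, 1 in the ileum and 41 within 2-fold. Each direction held 2.33% of them, against 4.32% and 7.13% of all genes, and the median log2 ratio was -0.24. Ero1l, the oxidase that makes disulfide bonds, was 2.13-fold (1.67 to 2.72) higher in the duodenum, at 0.578 in the duodenum and 0.271 in the ileum. Pdia5, a disulfide isomerase, was 2.92-fold (2.03 to 4.31) higher in the ileum, at 0.139 in the duodenum and 0.404 in the ileum. The chaperone Hspa5 was at 4.59 in the duodenum and 7.86 in the ileum, and Ern2, a sensor of unfolded protein in mucus-secreting cells, at 1.77 in the duodenum and 1.71 in the ileum. With the level of T cells subtracted, 7 genes of this list were higher in the duodenum and 17 in the ileum.

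**Figure D3:**
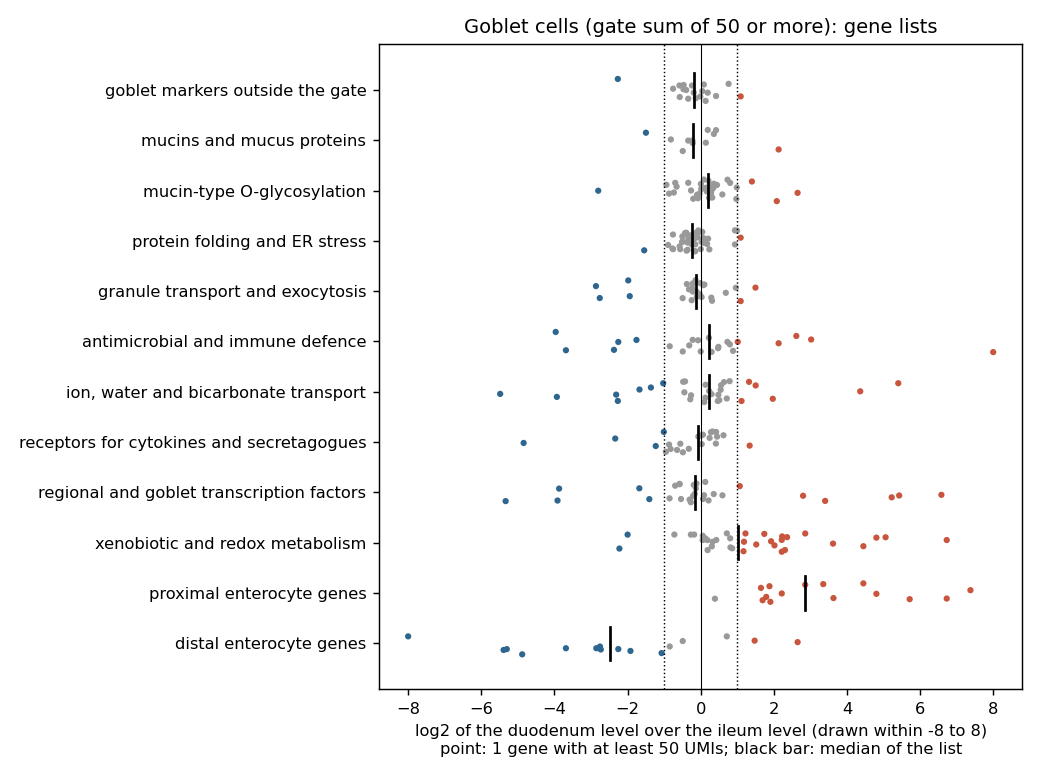
Log2 ratio of duodenum over ileum in goblet cells (horizontal axis) for each gene with at least 50 UMIs in 12 gene lists, with 1 point per gene, a black bar at each list's median, and values beyond 8 drawn at 8 (Reg1 and Fabp6). Lists of the secretory machinery lie mostly between the dotted lines that mark a ratio of 2. The lists of proximal and distal enterocyte genes, which were chosen by segment, lie to either side.

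Of 25 genes of granule transport and exocytosis, 2 were higher in the duodenum and 4 in the ileum (8.0% and 16%, against 4.32% and 7.13% of all genes), with a median log2 ratio of -0.12. Of the ileal genes, 3 were at or above the enterocyte level. Syt7, a calcium sensor of exocytosis, was at 0.293 (0.230 to 0.368) in duodenal, 0.732 (0.611 to 0.869) in jejunal and 1.16 (1.06 to 1.26) in ileal goblet cells, 3.95-fold (3.09 to 5.10) higher in the ileum. Sytl1, a partner of Rab27 on granules, was at 0.0950 in the duodenum and 0.644 in the ileum, 6.78-fold (4.47 to 10.7) higher. Rab37, a GTPase of secretory granules, was at 0.0950 in the duodenum and 0.365 in the ileum, below its level of 0.795 in ileal T cells. The granule genes Rab27b, at 3.37 in the duodenum and 3.66 in the ileum, Rab3d, at 1.09 in the duodenum and 1.11 in the ileum, and Sytl2, at 4.85 in the duodenum and 4.88 in the ileum, did not reach a ratio of 2.

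The genes with the largest ratios among those at or above the enterocyte level are named by the lower bound of their ratio, 12 in each direction. Clps, which encodes colipase, the cofactor of pancreatic lipase, had the most UMIs of the duodenal genes. The gene lies at chr17:28558149-28560766 of GRCm38, on the minus strand. It was at 24.6 (24.0 to 25.2) in duodenal, 9.52 (9.07 to 9.99) in jejunal and 0.348 (0.297 to 0.405) in ileal goblet cells, 70.7-fold (60.7 to 83.0) higher in the duodenum than in the ileum. Enterocytes held hardly any, at 0.0286 in the duodenum, and duodenal T cells were at 0.0412.

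Before thinning, 151 of 186 duodenal goblet cells (81.2%) and 52 of 406 ileal goblet cells (12.8%) had a UMI of Clps, against 1.89% of 53 duodenal T cells. After thinning the shares were 61.9% (54.4% to 69.0%) and 2.02% (0.874% to 3.93%), with 36.4% in the jejunum. The T cells were shallower, with medians of 3545 and 3851 non-mitochondrial UMIs in the duodenum and the ileum against 11494.5 and 8637.5 in goblet cells. Among duodenal goblet cells the level was uneven, with an interquartile range of 3.21 to 30.2 UMIs per 10000 and 39.7% of all UMIs in 19 of the 186 cells.

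Both named glutathione S-transferases, enzymes that join glutathione to reactive compounds, were higher in the duodenum. Gsta4, at chr9:78182774-78209349, was at 10.9 (10.5 to 11.3) in duodenal, 3.83 (3.55 to 4.13) in jejunal and 0.327 (0.278 to 0.383) in ileal goblet cells, 33.3-fold (28.3 to 39.4) higher. It stood above duodenal enterocytes, at 3.54, and T cells, at 0.577, and was found after thinning in 44.2% (36.8% to 51.8%) of duodenal and 1.76% (0.712% to 3.60%) of ileal goblet cells. Gsta1, at chr9:78230656-78242684, was at 7.29 (6.96 to 7.63) in duodenal, 1.35 (1.19 to 1.53) in jejunal and 0.0688 (0.0473 to 0.0966) in ileal goblet cells, 106-fold (75.2 to 155) higher, close to its level of 6.78 in duodenal enterocytes. Gsta1 has close paralogs, so reads that match several of them are lost from its count.

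Odf2l, which encodes a protein of centrioles and cilia, was found in most duodenal goblet cells. It was at 5.33 (5.04 to 5.62) in duodenal, 2.86 (2.62 to 3.12) in jejunal and 0.857 (0.776 to 0.943) in ileal goblet cells, 6.22-fold (5.56 to 6.96) higher in the duodenum, with enterocytes at 0.0877 and 0.0972. A UMI was present in 178 of 186 duodenal and 208 of 406 ileal goblet cells, and after thinning in 46.4% and 11.6%. Tubb2b, a beta-tubulin, was at 1.17 (1.04 to 1.31), 0.585 (0.478 to 0.709) and 0.0292 (0.0160 to 0.0490) in the duodenum, jejunum and ileum, 40.2-fold (23.6 to 74.4) higher in the duodenum, and Cmtm8, a membrane protein with a MARVEL domain, at 0.780 (0.675 to 0.897), 0.180 (0.123 to 0.254) and 0.0167 (0.00720 to 0.0329), 46.8-fold (23.3 to 109.9) higher. Both were near 0 in duodenal enterocytes, at 0.0119 and 0.00578.

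The other duodenal genes of this class were lower in level or shared with other cells. Sptssb, a small subunit of the enzyme that starts sphingolipid synthesis, was 9.59-fold (5.96 to 16.1) higher in the duodenum, at 0.420 in the duodenum and 0.0438 in the ileum. The transcription factor Mecom was 32.3-fold (10.4 to 162) higher, at 0.202 in the duodenum and 0.00625 in the ileum, close to its level of 0.175 in duodenal enterocytes. The predicted gene Gm6329 was 17.1-fold (7.83 to 44.3) higher, at 0.249 in the duodenum and 0.0146 in the ileum, and 2210407C18Rik was 5.43-fold (4.91 to 6.01) higher, at 5.88 in the duodenum and 1.08 in the ileum. Myl7, a myosin light chain, and Ly6e, a surface protein also made by leukocytes, were 27.5-fold (14.6 to 58.7) and 6.65-fold (5.73 to 7.73) higher, but their goblet levels of 0.574 and 3.20 lay below those of duodenal T cells, 2.60 and 4.41.

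Jejunal goblet cells, which the choice of genes did not use, lay between the duodenum and the ileum for 11 of these 12 genes. The exception was 2210407C18Rik, with jejunal and ileal levels of 1.04 and 1.08, whose intervals overlapped. Over all called genes the jejunum lay between the others for 254 of 329 higher in the duodenum (77.2%) and 449 of 543 higher in the ileum (82.7%), against 40.7% of all 7611 genes. A gene with a large ratio leaves a wider range for a value to lie in, so this contrast was fixed in part by the choice of genes.

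**Figure D4:**
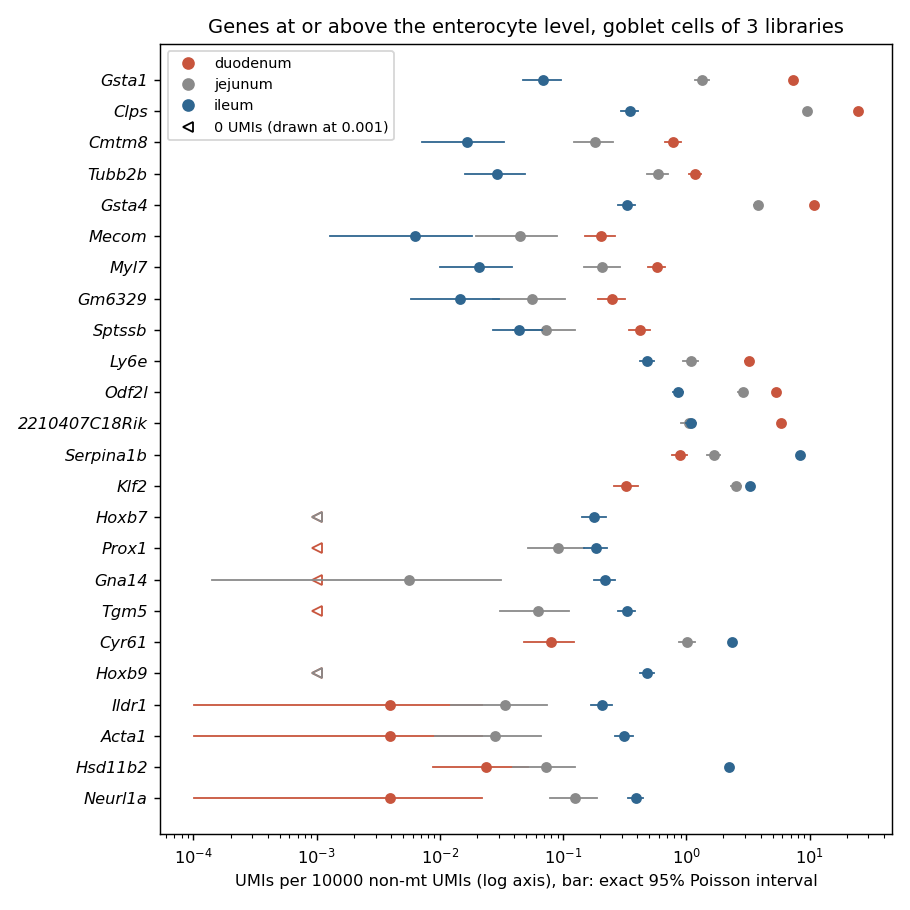
Level in goblet cells of the duodenum, jejunum and ileum (horizontal log axis, UMIs per 10000 non-mitochondrial UMIs) for the 12 leading genes in each direction among those at or above the enterocyte level, with exact 95% Poisson intervals as bars and 0 UMIs drawn as open triangles. The jejunum lies between the other libraries for 11 of the 12 duodenal genes and 10 of the 12 ileal genes.

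In the ileum, Serpina1b had the most UMIs of the 12 genes. It encodes an alpha-1 antitrypsin, an inhibitor of neutrophil elastase that the liver also secretes, at chr12:103728156-103830373. It was at 0.883 (0.771 to 1.01) in duodenal, 1.66 (1.48 to 1.86) in jejunal and 8.41 (8.15 to 8.67) in ileal goblet cells, 9.52-fold (8.32 to 10.9) higher in the ileum, with ileal enterocytes at 0.0301 and T cells at 0.173. A UMI was found in 293 of 406 ileal goblet cells (72.2%), against 49 of 186 in the duodenum (26.3%) and 2.15% of ileal T cells, and after thinning in 39.8% (34.9% to 44.8%) and 7.18% (3.88% to 12.0%). The Serpina1 genes are near-identical copies, so the split of counts among them is uncertain.

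Hsd11b2 was found in a fraction of ileal goblet cells. It encodes the dehydrogenase that inactivates corticosterone, and lies at chr8:105518755-105523988. It was at 0.0238 (0.00872 to 0.0517) in duodenal, 0.0732 (0.0390 to 0.125) in jejunal and 2.24 (2.10 to 2.37) in ileal goblet cells, 94.1-fold (43.1 to 257) higher in the ileum, with ileal enterocytes at 0.0276 and T cells at 0.0399. It was found in 120 of 406 ileal goblet cells (29.6%) and 4 of 186 duodenal ones (2.15%), against 1.15% of ileal T cells, and the 41 cells richest in it held 84.2% of its ileal UMIs. The 41 richest cells held 49.7% for Serpina1b and 37.8% for Zg16.

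Klf2 and Cyr61, a zinc finger transcription factor and a secreted matrix protein that are both early response genes, were higher in the ileum and the jejunum. Cyr61 was at 0.0792 (0.0484 to 0.122) in duodenal, 1.02 (0.876 to 1.18) in jejunal and 2.33 (2.20 to 2.47) in ileal goblet cells, 29.5-fold (19.0 to 48.4) higher in the ileum than in the duodenum. Klf2 was at 0.325 (0.258 to 0.403) in duodenal, 2.53 (2.30 to 2.77) in jejunal and 3.31 (3.15 to 3.48) in ileal goblet cells, 10.2-fold (8.17 to 12.9) higher, and ileal T cells were at 1.41. Enterocytes differed in the same direction at lower levels, with Cyr61 at 0.0398 in the duodenum and 0.106 in the ileum and Klf2 at 0.0286 and 0.0872. After thinning, 22.9% of ileal and 1.10% of duodenal goblet cells held a UMI of Cyr61, and 26.4% and 1.10% held one of Klf2.

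Of the 12 genes of the villus maturity list, 5 were higher in the ileum (41.7%, against 7.13% of all genes) and none in the duodenum. The median log2 ratio was -0.66 in goblet cells and -0.67 in enterocytes. The list joins maturity genes such as Krt20 with early response genes and nuclear RNAs, so the count does not measure maturity. Fos, Jun and Egr1, transcription factors induced within minutes of a stimulus, were among the 5. Fos was at 4.06 (3.82 to 4.32) in duodenal, 13.3 (12.7 to 13.8) in jejunal and 16.3 (15.9 to 16.6) in ileal goblet cells, 4.01-fold (3.75 to 4.28) higher in the ileum. Its median per cell was 1.04 in the duodenum and 17.2 in the ileum. Jun was 4.05-fold (3.77 to 4.36) higher, at 3.27 in the duodenum and 13.2 in the ileum, and Egr1 5.57-fold (5.01 to 6.22) higher, at 1.46 in the duodenum and 8.16 in the ileum. In enterocytes Fos was at 6.09 and 7.30, Jun at 6.46 and 11.3 and Egr1 at 0.975 and 1.87, all higher in the ileum by ratios under 2. Krt20, a keratin of mature cells, was at 9.47 in the duodenum and 14.4 in the ileum, and the nuclear RNA Malat1 at 153 in the duodenum and 151 in the ileum, both under a ratio of 2.

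Several ileal genes had 0 or 1 UMI in duodenal goblet cells. Tgm5, a transglutaminase, had 0 UMIs in the duodenum and 157 in the ileum, a level of 0.327 (0.278 to 0.383), at least 27.5-fold higher in the ileum with the duodenum set to a floor of 3 UMIs. Gna14, a G protein subunit that couples receptors to calcium, had 104 UMIs in the ileum and 0 in the duodenum, 18.2-fold higher at this floor. Prox1, a homeobox transcription factor, had 89 and 0, 15.6-fold higher at this floor, with a lower 95% bound of 12.4. Neurl1a, a ubiquitin ligase, had 186 UMIs in 132 of 406 ileal cells and 1 in the duodenum, 97.9-fold (17.4 to 3887) higher. In the jejunum Tgm5 was at 0.0619, Prox1 at 0.0900 and Neurl1a at 0.124, between the other segments, and ileal T cells were at 0.00665, 0.0183 and 0.0166. Acta1, a muscle actin, was at 0.313 (0.265 to 0.367) in the ileum, 78.9-fold (14.0 to 3139) higher, all of it in 36 of 406 cells, and Ildr1, a protein of tricellular junctions, at 0.206 (0.168 to 0.251), 52.1-fold (9.14 to 2079) higher.

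Some genes of regional identity differed with position. Of 29 regional and goblet transcription factors with enough UMIs, 6 were higher in the duodenum and 5 in the ileum. These are 20.7% and 17.2%, against 4.32% and 7.13% of all genes, and the median log2 ratio was -0.16. Hoxb9 and Hoxb7, homeobox genes that mark posterior positions, had 0 UMIs in duodenal and jejunal goblet cells and 230 and 86 in ileal ones. Hoxb9, at chr11:96271457-96276595, was at 0.479 (0.419 to 0.545) in the ileum, at least 40.4-fold higher, and above the 0.140 of ileal enterocytes. It was found in 127 of 406 ileal goblet cells (31.3%), against 0.920% of ileal T cells. Hoxb7 was 15.1-fold higher against the same floor, at 0.179 (0.143 to 0.221). Enterocytes showed the same pattern, with Hoxb7 at 0.0821 in the ileum and 0 UMIs of both genes in the duodenum.

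The 6 factors that were higher in the duodenum were below the enterocyte level. Pdx1, which marks the duodenum and pancreas, was at 0.269 (0.209 to 0.341) in the duodenum with 0 UMIs in the ileum, at least 43.1-fold higher, and at 0.600 in duodenal enterocytes. Onecut2 was at 3.40 (3.17 to 3.63) in duodenal, 1.29 (1.13 to 1.47) in jejunal and 0.0354 (0.0206 to 0.0567) in ileal goblet cells, 95.9-fold (59.5 to 165) higher, with duodenal enterocytes at 5.10 and T cells at 2.06. Gata4, which sets proximal identity, was at 0.309 in the duodenum and 0.0292 in the ileum, 10.6-fold (5.95 to 20.3) higher, and Meis2 was at least 37.4-fold higher, at 0.234 in the duodenum with 0 UMIs in the ileum. Foxq1, which is in none of the lists but is named by the rule for genes below the enterocyte level, was at 2.00 in the duodenum and 0.0188 in the ileum, 107-fold (55.7 to 234) higher, with duodenal enterocytes at 2.20. Cdx2, Hnf4a, Klf4 and Foxa3 did not reach a ratio of 2. Foxa1, a factor of secretory cells, was 3.20-fold (2.26 to 4.64) higher in the ileum, at 0.150 in the duodenum and 0.481 in the ileum, and Osr2 was 14.6-fold (8.07 to 29.6) higher, at 0.0436 in the duodenum and 0.638 in the ileum, below its level of 1.07 in ileal enterocytes.

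Of 31 genes of ion, water and bicarbonate transport, 6 were higher in the duodenum and 7 in the ileum (19.4% and 22.6%, against 4.32% and 7.13% of all genes), with a median log2 ratio of 0.23. Of the 13, 4 were at or above the enterocyte level. Slc12a2, the basolateral transporter that feeds chloride secretion, was at 0.657 (0.561 to 0.765) in duodenal, 0.777 (0.652 to 0.918) in jejunal and 2.10 (1.97 to 2.23) in ileal goblet cells, 3.19-fold (2.70 to 3.78) higher in the ileum. After thinning, 8.29% (4.71% to 13.3%) of duodenal and 14.6% (11.3% to 18.5%) of ileal goblet cells held a UMI of it (unthinned 47.8% and 45.6%, against 5.66% and 4.75% of T cells), and the 41 richest ileal cells held 64.9% of its UMIs. Kcne3, a potassium channel subunit, was 2.57-fold (1.51 to 4.62) higher in the ileum, with 17 and 83 UMIs, and turned to a log2 ratio of 0.81 in thinned cells. Ttyh1, a chloride channel family member, was 3.92-fold (3.23 to 4.78) higher in the duodenum, at 1.27 in the duodenum and 0.323 in the ileum, and Guca2a was the fourth. The bicarbonate transporters Slc4a4 and Slc26a6 were 2.83-fold (2.04 to 3.96) and 2.50-fold (2.02 to 3.10) higher in the duodenum, but were at 2.51 and 9.0 in duodenal enterocytes against 0.372 and 0.824 in goblet cells. The sodium-proton exchanger Slc9a3, 42.3-fold (20.1 to 107) higher, was likewise at 5.32 in enterocytes and 0.618 in goblet cells.

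Of 23 receptors for cytokines and secretagogues, 1 was higher in the duodenum and 4 in the ileum (4.35% and 17.4%, against 4.32% and 7.13% of all genes), with a median log2 ratio of -0.06. P2ry4, a receptor for extracellular nucleotides, was at 0.00792 (0.000959 to 0.0286) in duodenal, 0.0675 (0.0349 to 0.118) in jejunal and 0.227 (0.187 to 0.274) in ileal goblet cells, 28.7-fold (7.75 to 239.9) higher in the ileum, with 0 UMIs in enterocytes of both segments. It was found in 92 of 406 ileal and 2 of 186 duodenal goblet cells. Ffar4, a receptor for long-chain fatty acids, was the duodenal one, at 1.08 (0.956 to 1.22) in duodenal, 0.439 (0.347 to 0.548) in jejunal and 0.427 (0.371 to 0.490) in ileal goblet cells, 2.53-fold (2.10 to 3.05) higher, with enterocytes at 0.00385 and 0.0169. Gprc5a, Ifnlr1 and Il17rc were higher in the ileum by 5.05-fold (2.63 to 10.9), 2.34-fold (1.2 to 5.00) and 2.01-fold (1.73 to 2.35), each below its level in ileal enterocytes. The muscarinic receptors that trigger mucus release, Chrm1 and Chrm3, were at 0.170 in the duodenum and 0.144 in the ileum and at 0.135 in the duodenum and 0.260 in the ileum, both under a ratio of 2.

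Of 23 antimicrobial and immune defence genes, 5 were higher in the duodenum and 5 in the ileum (21.7% each, against 4.32% and 7.13% of all genes), with a median log2 ratio of 0.23. Reg3b and Reg3g, secreted lectins that bind bacteria, were 4.77-fold (4.50 to 5.06) and 12.9-fold (11.1 to 15) higher in the ileum. Reg3g was at 0.736 (0.634 to 0.850) in duodenal, 10.3 (9.80 to 10.8) in jejunal and 9.48 (9.20 to 9.76) in ileal goblet cells, but ileal enterocytes were at 40.8 and ileal T cells at 5.25. Mptx1, a pentraxin, was 5.18-fold (3.84 to 7.12) higher in the ileum, at 0.190 in the duodenum and 0.984 in the ileum, and almost absent from ileal enterocytes, at 0.00690. Reg1, a lectin of the same family as Reg3g, had 1053 UMIs in the duodenum and 1 in the ileum, 2001-fold (358 to 79095) higher in the duodenum, at 4.17 in goblet cells, 63.8 in duodenal enterocytes and 12.9 in T cells. Pigr, the receptor that carries antibodies into the lumen, was at 8.13 in the duodenum and 4.41 in the ileum, and Pglyrp1, which binds peptidoglycan, at 2.96 in the duodenum and 2.53 in the ileum.

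The antimicrobial genes of Paneth cells, the granule cells of the crypt base, rested on few barcodes. Of 9 measured Paneth markers, 5 were higher in the duodenum and 2 in the ileum (55.6% and 22.2%, against 4.32% and 7.13% of all genes). The list summed to 165 UMIs per 10000 in duodenal, 13.9 in jejunal and 25.1 in ileal goblet cells. In the duodenum, 1 goblet cell held 20095 of the 41696 UMIs of the list, and 17 duodenal and 25 ileal goblet cells held at least 50 per 10000. Lyz1, lysozyme, was 8.12-fold (7.66 to 8.60) higher in the duodenum, with 55.7% of its duodenal UMIs in 1 cell and a log2 ratio of -0.17 without cells over 20000 UMIs. Defa24 and Defa30, alpha-defensins of a family of near-identical copies, were 10.6-fold (10.3 to 10.9) and 5.88-fold (5.45 to 6.35) higher in the duodenum with all goblet cells. Without these Paneth-rich cells the direction of Defa24 and Defa30 turned, with log2 ratios of -0.77 and -2.16 in place of 3.40 and 2.56. The part of doublets in this result was not tested.

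**Figure D5:**
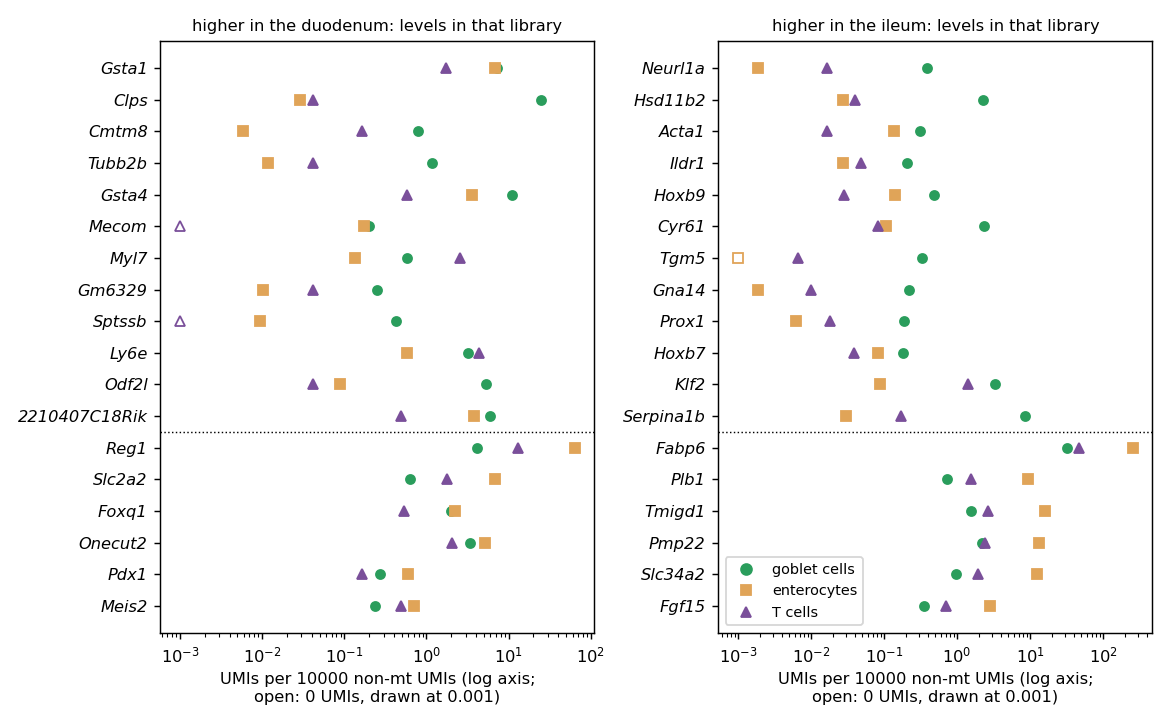
Levels in goblet cells, enterocytes and T cells of the library in which each gene was higher (horizontal log axes, UMIs per 10000 non-mitochondrial UMIs), for the 12 leading genes at or above the enterocyte level (above the dotted line) and the 6 leading genes below it, with the duodenum on the left and the ileum on the right. All 12 upper ileal genes and 10 of the 12 upper duodenal genes lie above T cells, and the 6 lower ileal genes lie below T cells.

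Below the enterocyte level, the largest ratios belonged to well-known regional genes of absorptive cells. Fabp6, the ileal bile acid binding protein, had 15635 UMIs in ileal and 0 in duodenal goblet cells, at least 2743-fold higher in the ileum. Its goblet level of 32.6 compared with 255 in ileal enterocytes and 47.6 in ileal T cells, which should lack it. Tmigd1, Plb1, Pmp22, Slc34a2 and the hormone gene Fgf15 were likewise higher in the ileum and below the ileal T cell level. In the duodenum Reg1, Slc2a2 and Meis2 were below duodenal T cells, and Foxq1, Onecut2 and Pdx1 above them. Duodenal T cells were few, 53 against 1304 in the ileum, and held 260 UMIs of the enterocyte panel per 10000 against 213 in ileal T cells.

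The lists of absorptive genes lay on either side. The proximal and distal lists were chosen by segment, with earlier results of these data known, so their directions were fixed in part in advance. Of 15 genes of proximal enterocytes, 14 (93.3%, against 4.32% of all genes) were higher in duodenal goblet cells and none in ileal ones. Their median log2 ratio was 2.86, and 1 of the 14, Gsta1, was at the enterocyte level. Of 16 genes of distal enterocytes, 11 were higher in the ileum and 2 in the duodenum (68.8% and 12.5%, against 7.13% and 4.32% of all genes). Their median was -2.49, with none at the enterocyte level. With the level of T cells subtracted, 2 proximal genes were higher in the duodenum, and 4 distal genes in the ileum. Of the 13 genes of the enterocyte panel, 6 were higher in the duodenum and 3 in the ileum (46.2% and 23.1%), with a median of 0.83. Of 26 genes of lipid handling and bile acids the counts were 6 and 7 (23.1% and 26.9%), with a median of 0.41. The bile acid exporters Slc51a and Slc51b were 6.75-fold (5.04 to 9.22) and 7.23-fold (5.02 to 10.8) higher in the ileum, at 1.31 and 0.888 against 11.7 and 8.46 in ileal enterocytes. Of 4 MHC class II genes 3 (75%) were higher in the ileum, with a median of -2.11. Cd74, the invariant chain, was at 0.139 in the duodenum and 0.838 in the ileum against 6.82 in ileal enterocytes and 7.43 in T cells.

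Of 36 genes of xenobiotic and redox metabolism, 18 were higher in the duodenum and 2 in the ileum. These are 50% and 5.56%, against 4.32% and 7.13% of all genes, and the median log2 ratio was 1.02. In enterocytes the median of these genes was 1.58. Gsta1 and Gsta4 were the only members among the 18 at or above the enterocyte level. Adh6a, an alcohol dehydrogenase, was 28.0-fold (19.8 to 40.6) higher, at 2.04 in the duodenum and 0.0729 in the ileum, against 15.5 in duodenal enterocytes. Gsto1, another glutathione transferase, was 3.34-fold (2.92 to 3.83) higher, at 2.33 in the duodenum and 0.698 in the ileum against 9.85. The esterase Ces2a and the peroxidase Gpx2 were higher in the ileum, by 4.67-fold (3.33 to 6.71) and 4.00-fold (2.91 to 5.6), below the levels of 6.21 and 2.72 in ileal enterocytes, and with the level of T cells subtracted Gpx2 turned to a log2 ratio of 0.82. The part of enterocyte RNA in these ratios was not tested, and the enterocyte panel stood at 11.3% and 10.9% of its enterocyte level in the duodenum and the ileum. With the level of T cells subtracted, 6 genes of the list were higher in the duodenum and 5 in the ileum. T cells held the list at a sum of 68.3 and 23.8, above the 56.2 and 19.3 of duodenal and ileal goblet cells, so part of the list fell to the floor.

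Markers of other cell types had mostly few UMIs in goblet cells. Of the 10 enteroendocrine markers, Sct and Nts had enough UMIs and both were higher in the ileum (100%, against 7.13% of all genes). Without cells holding 2 genes of another type 1 marker, Sct, was measured, at a log2 ratio of -0.98, under the limit for a call. Sct, which encodes secretin, was at 3.69 (3.46 to 3.93) in duodenal, 4.68 (4.36 to 5.01) in jejunal and 9.61 (9.34 to 9.89) in ileal goblet cells, 2.60-fold (2.43 to 2.80) higher in the ileum, where 1 cell held 21.7% of its UMIs. Duodenal T cells were at 41.2 and ileal ones at 1.28. A UMI of Sct was present after thinning in 21.5% (15.8% to 28.3%) of duodenal and 43.6% (38.6% to 48.6%) of ileal goblet cells (unthinned 72.6% and 80.8%, against 11.3% and 22% of T cells). Nts, neurotensin, had 1048 UMIs in the ileum, of which 893 were in 1 cell. None of the 7 tuft markers reached 50 UMIs. Of 5 crypt and cycling markers 3 (Top2a, Stmn1 and Hmgb2) were higher in the ileum, which is 60%, against 7.13% of all genes. The median log2 ratio was -1.09, and none of them was higher without cells of over 6000 genes. The 1 measured T cell marker, Gzma, was higher in the ileum, and the 3 measured B and plasma cell markers, Jchain, Igha and Igkc, were higher in the duodenum, all below the level of enterocytes. Each is 100% of the measured genes of its list, against 7.13% of all genes for the ileum and 4.32% for the duodenum. With so few measured genes these shares say little.

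By the rule, with the ileal cells between 10 and 50 included, the leading genes at or above the enterocyte level were the same 12 in the duodenum and shared 10 of 12 in the ileum. The other 2 by the rule were Coro1a and Ebf1, which act in leukocytes. Coro1a was at 0.128 by the rule and 0.0458 at 50 or more, and 9.90 in ileal T cells. Ebf1 had 3 UMIs in goblet cells at 50 or more. Fabp6 was at 62.3 by the rule, against 32.6 in goblet cells, whereas Serpina1b was at 7.20 against 8.41 and Clps in the duodenum at 24.3 against 24.6.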

How the data were processed

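Single cells were profiled in 3 libraries of mouse small intestine, 1 per segment. The authors aligned and counted the reads with Cell Ranger 3.0.2 on GRCm38 (mm10), and deposited raw UMI counts per gene and barcode, used here as deposited. Cell Ranger keeps uniquely mapped reads, so near-identical genes lose counts. Each library had 1 matrix of 31053 genes, and 36 rows with a duplicated symbol were kept apart by identifier.

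Goblet cells, enterocytes and T cells were gated in each library. Enterocytes passed the same UMI, mitochondrial and Ptprc limits, had at least 2 of 4 brush border genes (Sis, Anpep and Alpi among them, 1 not reported here) with a sum of at least 10 UMIs per 10000, at most 1 gate gene and under 2 gate UMIs per 10000. T cells had Ptprc and at least 2 of 6 T cell receptor genes, with no limit on the goblet genes. Counts were summed per gene over cells and divided by the non-mitochondrial UMIs. A ratio needed 50 UMIs over both segments and was called at a fold of 2. Against a segment with 0 UMIs the ratio was computed at a floor of 3 UMIs over all its cells, which is not the lower bound of its interval. The same floor replaced levels that fell below it once the T cell level was subtracted. No test was run, because each group was 1 library. Segments were taken from the labels, and 0 columns of per-sample values were left out.

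Members, gene lists and the limit of 50 were chosen with earlier results of these data known. Named genes were the gate genes and, per direction, the 12 genes with the largest near bound of the ratio at or above the enterocyte level of that library with no cell holding over 20% of the UMIs, the 6 largest below it, and members of the 23 lists. No doublet caller was run. Alternatives left out cells over 20000 UMIs, or cells with 2 or more genes of another cell type's list. The lists used were enteroendocrine, tuft, crypt and cycling, T cell, and B and plasma cell markers, without the enterocyte and Paneth lists. This left 87 of 186 duodenal and 210 of 406 ileal cells at 50 or more. Other alternatives changed the mitochondrial limit, the gate, the depth, the denominator, the background, the minimum and the fold. Coordinates are from GENCODE M21 on GRCm38, which held 30934 of the 31053 identifiers. Python 3.11.15, numpy 2.4.6, scipy 1.17.1, pandas 2.3.3 and matplotlib 3.10.9 were used, and the ratio script was tested on simulated data.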

Additional observations from a re-analysis of the deposited data

Results flagged for a closer look

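For 12 genes at or above the enterocyte level of the higher library, goblet cells and enterocytes differed at least 2-fold between the segments in opposite directions, which is what brought them out. With 1 library per segment the difference between the cell types was not tested. Values are log2 ratios of duodenum over ileum, so a negative value is higher in the ileum.

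Muc4, a membrane mucin, was at -1.50 in goblet cells and 2.33 in enterocytes, from 11 and 59 goblet UMIs. Gal3st2b, a sulfotransferase for galactose that has near-identical copies, went the other way, at 2.00 in goblet cells and -1.25 in enterocytes, from 139 duodenal and 66 ileal goblet UMIs. Cyp27a1, a sterol hydroxylase, was at -2.26 in goblet cells and 1.18 in enterocytes. Kcne3, the potassium channel subunit, was at -1.36 and 1.04. Ahr, the receptor for aryl hydrocarbons, was at -1.17 and 1.14, from 11 and 47 goblet UMIs.

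Hspe1, a mitochondrial chaperonin, had the most UMIs of the 12, 81 and 344, and was at -1.16 in goblet cells and 1.52 in enterocytes. C1qbp was at -1.43 in goblet cells, Slc29a3, a nucleoside transporter, at -1.26, Rangrf at -1.23, and Vars, which charges tRNA with valine, at -1.21. Blnk, an adaptor of B cell signalling, was at -1.13 and Bcat2, which degrades branched-chain amino acids, at -1.03. The enterocyte values of these 6 genes lay between 1.27 and 1.76, and each had at most 21 duodenal goblet UMIs except Blnk, with 37.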

How the results depend on the processing

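The number of called genes moved by over 1.5 times under several settings. By the rule (260 genes higher in the duodenum, 827 in the ileum), the duodenal count was 466 with each cell weighing the same and 407 when divided by UMIs outside the gate genes, Zg16 and Tff3. The ileal count was 543 with a gate sum of at least 50 and 534 without cells holding 2 genes of another type. Duodenal and ileal counts were 110 and 336 in thinned cells, 647 and 1549 with the T cell level subtracted, 403 and 1307 at a minimum of 20 UMIs, 121 and 337 at 200, 630 and 1711 at a fold of 1.5, and 108 and 378 at a fold of 3. In cells at 50 or more (329 and 543), the duodenal count was 210 with a mitochondrial limit of 20% and 578 with each cell weighing the same. The ileal count there was 308 without cells holding 2 genes of another type and 349 without cells over 20000 UMIs. Both counts were 82 and 143 in thinned cells, 648 and 1159 with T cells subtracted, 525 and 877 at 20 UMIs, 135 and 235 at 200, 761 and 1181 at a fold of 1.5, and 136 and 242 at a fold of 3. Thinning and a minimum of 200 leave fewer genes measured, and for the other settings the cause was not tested.

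Turns of direction are given as log2 ratios of duodenum over ileum. They were counted only for named genes with a ratio of at least 2 in the main setting, many of them named for large ratios. The small number of turns was therefore fixed in part by the choice of genes. By the rule Myl7 was at -0.55 with T cells subtracted. In cells at 50 or more, T cell subtraction turned Fabp2 to 9.79, Gpx2 to 0.82 and Papss2 to -4.71. Slc4a7 was at -0.44 with a mitochondrial limit of 20% and -0.75 without the cells richest in enterocyte genes. Leaving out cells over 20000 UMIs turned Itln1 to -1.62 and Lyz1 to -0.17, thinning turned Ehf to 0.55 and Kcne3 to 0.81, and leaving out Paneth-rich cells turned Defa24 to -0.77 and Defa30 to -2.16. In these cells 1602 of the values recomputed for single genes moved by less than their counting interval, 579 moved further and 11 turned.

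The goblet share was 14.61% in the duodenum with a mitochondrial limit of 20%, and 14.04% with a gate sum of 50 as well. The ileal share was 7.03% with a gate sum of 50 and 8.27% with both. The ileal minus the duodenal share, 6.89 percentage points by the rule, was -2.69 with the mitochondrial limit, 2.52 with the gate sum and -5.77 with both.

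Settings combined with the limit of 50, those on Paneth-rich cells and on genes held by 1 cell, and the denominator without 5 genes were chosen after seeing the data. No paired analysis was possible because each segment was 1 library, and for the same reason leaving out a library was not run.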
